A study of Mus musculus with 12 samples.

Results

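The genes described are the 7 class 3 semaphorins (*Sema3a*, *Sema3b*, *Sema3c*, *Sema3d*, *Sema3e*, *Sema3f* and *Sema3g*) and the 2 neuropilins (*Nrp1* and *Nrp2*). They were taken by name and are 9 of the 54193 genes to which the reads were assigned. Class 3 semaphorins are secreted proteins that steer growing axons, migrating neurons and blood vessels. Most of them bind a neuropilin on the receiving cell, which holds the ligand but has a short inner part, and the signal enters the cell through a plexin that sits beside it. *Sema3e* is the known exception, as its protein binds plexin D1 directly. In the ventral midbrain these cues are known to guide the axons of dopaminergic neurons towards the striatum.

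RNA came from the substantia nigra pars compacta (SNpc) of 12 mice, all described as male, at 1 week of age. The tissue was cut by laser from cresyl violet-stained sections. The 4 groups held 3 mice each, with 1 library per mouse. OF1 WT and C57 WT mice carried both copies of *En1*, a homeobox gene of midbrain dopaminergic neurons. OF1-En1+/- and C57-En1+/- mice had a LacZ insertion in 1 copy from conception and in every cell, and the mutation was moved to C57 by repeated backcrossing, so a stretch of donor genome around *En1* may remain. No group received a treatment. The questions were which genes differ between hemizygous and WT mice in each strain, and between the strains.

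The libraries held between 13538864 and 168741283 estimated reads. Those of C57 WT mice held at least 61433970 and those of the other groups at most 37754338. Depth and group therefore cannot be told apart in comparisons with C57 WT mice. The dopaminergic markers did not follow the tissue label in most libraries. The summed TPM (transcript abundance scaled for gene length and depth) of 9 dopaminergic genes was 6861 in SW22, an OF1-En1+/- mouse, and 10787 in C572S, a C57 WT mouse, and between 28.7 and 173 in the other libraries, with *Pitx3* at 0 in 4 of them. The normalized count of *En1* was 691 in SW22 and 1071 in C572S and at most 15.2 in the others, so it gave no check of the genotype labels. *Xist* reached 1330.5 normalized counts and the Y-linked *Ddx3y* was at 0 in C57-En1+/- mouse C572. These values go against its description as male. In bulk RNA, fewer cells of a type and less RNA per cell cannot be told apart. For some members whose values in these libraries stand apart, values without them are also given.

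*Nrp1*, the coreceptor of SEMA3A and of VEGF-A, had the highest length-scaled level of the 9 genes. Its TPM had a median of 24.2 over the 12 libraries and ran from 6.25 to 40.4. *Sema3a*, the repellent that collapses growth cones, came next with a median TPM of 6.45 and ran from 0.225 to 38.0. The median TPM of *Sema3f*, a repellent that acts mainly through neuropilin 2, was 3.73. *Sema3e*, *Nrp2*, *Sema3b*, *Sema3c* and *Sema3d* followed with median TPM of 2.65, 2.33, 2.16, 2.07 and 1.49. *Sema3g*, a ligand best known from endothelial cells, was the lowest with a median TPM of 0.175.

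This order was drawn from the same TPM values that were then tested, and only neighbours in it were compared. Most of these neighbours did not differ beyond their spread. An exact paired permutation test on log2(TPM + 0.1) over the 12 libraries, two-sided and adjusted over the 8 pairs of neighbours, separated only *Sema3d* from *Sema3g* (adjusted p = 0.00781, *Sema3d* higher in 11 of 12 libraries). *Nrp1* exceeded *Sema3a* in 9 of 12 libraries (adjusted p = 0.119). The other 6 pairs had adjusted p between 0.203 and 0.988. Which gene led also differed between libraries. *Nrp1* led in 8 libraries, *Sema3a* led in SW31, SWG and C5743, and *Sema3e* led in C575.

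**Figure D1:**
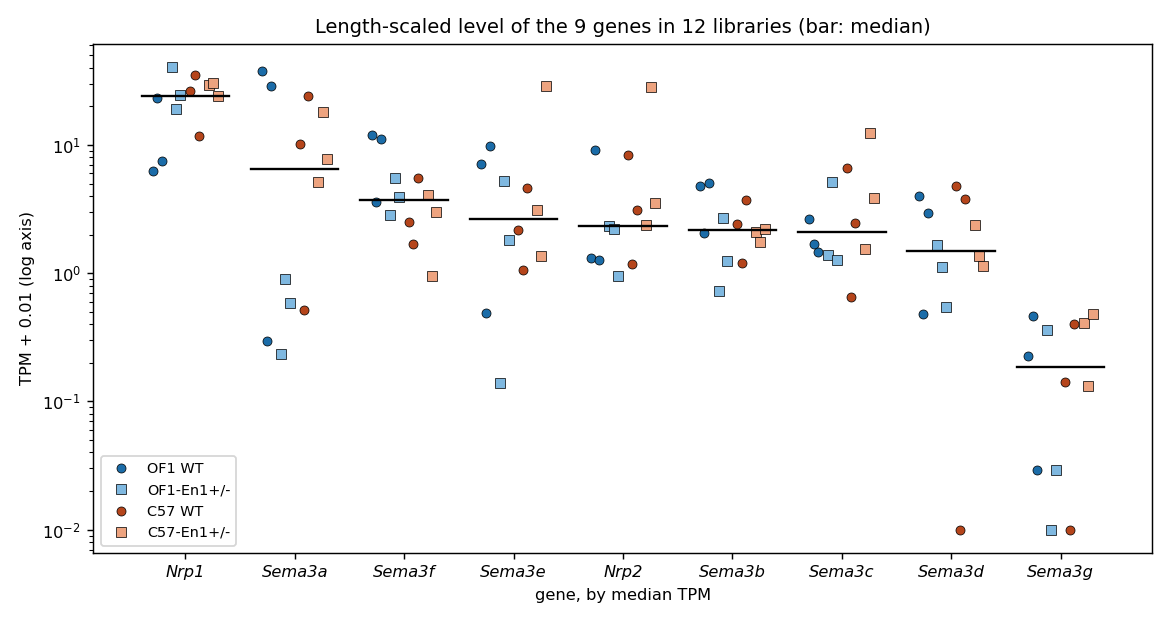
TPM of each gene on a log axis, with 0.01 added so that values of 0 can be drawn, in the 12 libraries. Points are mice, coloured by group, and bars are medians. *Nrp1* has the highest median (24.2) and *Sema3g* the lowest (0.175), and *Sema3a* falls into a high and a low set of libraries.

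*Sema3a* (ENSMUSG00000028883, chromosome 5 of GRCm39, 13175288 to 13653578, plus strand) had the most negative log2 fold change of the members in OF1-En1+/- against OF1 WT mice. Its normalized count (estimated reads scaled to a common depth) was 5118 in SW31, 44.4 in SW7 and 3919 in SWG, the OF1 WT mice. The OF1-En1+/- mice SW21, SW22 and SWB had 31.7, 126 and 67.5. So all OF1-En1+/- mice were low, and the WT mouse SW7 was as low as they were, which made the groups overlap. The C57 WT mice had 1160.0 (C5710), 69.6 (C572S) and 3205 (C5743) normalized counts. The C57-En1+/- mice had 802 (C5713), 3122 (C572) and 1093 (C575). C572S alone was low among the C57 mice, and C57-En1+/- mice were all higher than every OF1-En1+/- mouse. Between the hemizygous groups 13.2% of all genes tested did not overlap.

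The log2 fold change of *Sema3a* in OF1-En1+/- against OF1 WT was -5.36 (SE 1.68), which did not pass the edgeR test after adjustment over all 18017 genes tested (adjusted p = 0.458). DESeq2 on the same counts called it lower (adjusted p = 0.0186). In C57-En1+/- against C57 WT its log2 fold change was 0.18 (SE 1.37, edgeR adjusted p = 0.983), and its sign turned without C572S (-0.34) or without C572 (-0.62). The difference between these effects, C57 minus OF1, was 5.53 (SE 2.11), with an edgeR adjusted p of 0.691. OF1-En1+/- against C57-En1+/- gave -4.50 (SE 1.62, edgeR adjusted p = 0.481, DESeq2 adjusted p = 0.0441, or 0.0528 with length offsets). These comparisons share mice with each other. Over both strains, En1+/- against WT gave -2.59 (SE 1.05, edgeR adjusted p = 0.398).

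Markers of subthalamic and posterior hypothalamic neurons, which lie in front of and above the SNpc, moved with *Sema3a*, but not in every library. The summed TPM of these 7 genes ran from 390 to 1593 in WT and from 38.99 to 123 in En1+/- mice of OF1. In C57 it ran from 164 to 1707 in WT and from 64.1 to 438 in En1+/- mice. In OF1-En1+/- against OF1 WT 7 of 7 had negative log2 fold changes (median -4.16), edgeR called none, and *Nos1* and *Tac1* were among those that DESeq2 called lower. *Barhl1* was at 0 in SW7, SW21, SWB, C572S and C572, and *Barhl2* in SW7 and SWB. The 3 libraries with the highest *Sema3a* TPM (SW31, SWG and C5743) were also the 3 with the highest sum, between 1444 and 1707. SW7 departed from this, with a *Sema3a* TPM of 0.284 beside a sum of 390, of which *Tac1* gave 310. C572 went the other way, with a *Sema3a* TPM of 18.2 beside a sum of 64.1. In that library the summed TPM of 7 cholinergic and motor neuron markers was 846, against 20.0 to 130.2 in the others. The part of these cells in the differences of *Sema3a* was not tested.

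*Sema3b* (ENSMUSG00000057969, chromosome 9, 107474872 to 107486456, minus strand), whose protein can bind either neuropilin, was the only member whose OF1 groups did not overlap in normalized counts. Of all genes tested 15.7% did not overlap between the OF1 groups. Among OF1 WT mice SW31 had 271, SW7 169.5 and SWG 334 normalized counts. Among OF1-En1+/- mice SW21 had 54.6, SW22 95.3 and SWB 97.9. C57 WT mice had 114, 91.1 and 198 and C57-En1+/- mice 174, 145 and 169 normalized counts. The lowest OF1 WT mouse therefore stood above the highest OF1-En1+/- mouse, while the C57 groups overlapped. On TPM the OF1 groups overlapped too, with *Sema3b* at 2.70 in SW22 and 2.05 in SW7. The 3 libraries highest in *Sema3b* (SWG, SW31 and C5743) were the 3 with the highest sum of subthalamic and posterior hypothalamic markers, whose part in this difference was not tested.

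The log2 fold change of *Sema3b* was -1.64 (SE 0.44) in the OF1 genotype comparison, with an edgeR adjusted p of 0.447, and DESeq2 called it lower (adjusted p = 0.036) but not with length offsets (adjusted p = 0.243). It was -0.98 (SE 0.43, edgeR adjusted p = 0.596) in OF1-En1+/- against C57-En1+/- mice, whose normalized counts also did not overlap. The same was so for 13.2% of all genes tested. On TPM the *Sema3b* values of these groups overlapped, with SW22 at 2.70 against 1.74 to 2.21 in the C57-En1+/- mice. In WT mice the strain difference had the other sign, with *Sema3b* at 0.94 (SE 0.43, edgeR adjusted p = 0.575) in OF1 against C57. The genotype effect in C57 minus that in OF1 was 1.92 (SE 0.61, edgeR adjusted p = 0.691). Over both strains *Sema3b* had -0.68 (SE 0.30, edgeR adjusted p = 0.421). With 3 mice against 3 the smallest p an exact permutation test allows is 0.10.

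*Sema3f* (ENSMUSG00000034684, chromosome 9, 107558698 to 107587674, minus strand) lies near *Sema3b* and is known to repel axons that carry neuropilin 2. The OF1 WT mice had 835 (SW31), 298 (SW7) and 802 (SWG) normalized counts and the OF1-En1+/- mice 157 (SW21), 379 (SW22) and 259 (SWB). Values in the C57 WT mice were 122 (C5710), 105 (C572S) and 345 (C5743), and those in the C57-En1+/- mice 230.1 (C5713), 83.6 (C572) and 176 (C575). SW31 and SWG, with subthalamic and posterior hypothalamic sums of 1593 and 1444 TPM, were the highest of all 12, and the other OF1 mice lay within or just above the range of the C57 mice.

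*Sema3f* had the smallest p of the members between the strains over both genotypes, and it too missed the adjusted threshold. OF1 against C57 over both genotypes gave a log2 fold change of 1.23 (SE 0.41, edgeR adjusted p = 0.264, DESeq2 adjusted p = 0.0598). In WT mice alone it was 1.75 (SE 0.59, edgeR adjusted p = 0.343). In OF1-En1+/- against OF1 WT *Sema3f* had -1.28 (SE 0.58, edgeR adjusted p = 0.537).

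The windows of 250 bases before the start of the leading transcript were read from GRCm39 for the 9 genes and searched for TAATTA, the core letters that many homeodomain proteins, EN1 among them, are known to prefer. The letters read the same on both strands. *Sema3c* was the only member whose window held them, and 4.29% of the 18797 windows of protein-coding genes did. The window of *Sema3c* is shown for this match, in capitals, and that of *Sema3f* as that of the member with the smallest p between the strains over both genotypes, with no match. The *Sema3c* window was chr5:17778969-17779218 on the plus strand, with the match beginning 38 bases before the start of *Sema3c-201*. The *Sema3f* window was chr9:107587675-107587924 on the minus strand. Neither overlapped an annotated exon, whereas the windows of *Sema3a*, *Sema3b* and *Nrp1* overlapped exons of other transcripts and are not shown.
Sema3c: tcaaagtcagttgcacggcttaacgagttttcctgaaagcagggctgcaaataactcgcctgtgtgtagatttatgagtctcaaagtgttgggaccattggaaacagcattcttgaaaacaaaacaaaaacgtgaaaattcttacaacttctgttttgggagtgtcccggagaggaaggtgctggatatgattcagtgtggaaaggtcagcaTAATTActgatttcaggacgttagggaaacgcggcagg
Sema3f: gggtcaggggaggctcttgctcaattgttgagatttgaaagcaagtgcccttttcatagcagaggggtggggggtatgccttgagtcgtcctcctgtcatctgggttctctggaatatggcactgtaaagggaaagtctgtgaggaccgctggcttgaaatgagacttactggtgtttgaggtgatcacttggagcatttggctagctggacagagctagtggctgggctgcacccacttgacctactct
A match of letters describes the window and is not evidence of binding. *Sema3c* had no difference with p under 0.05 in any comparison of genotypes.

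*Sema3c* (ENSMUSG00000028780, chromosome 5, 17779219 to 17935648, plus strand) is known to attract some axons, those of midbrain dopaminergic neurons in culture among them. In the order of mice used above, OF1 WT mice had 304, 261 and 173 and OF1-En1+/- mice 167, 635 and 144 normalized counts. C57 WT mice had 674, 70.1 and 341 and C57-En1+/- mice 169, 1777 and 441. C572 was the highest library and C572S the lowest. None of the 4 pairs of groups was separate. Without SW22 and C572S, OF1 against C57 over both genotypes had a log2 fold change of -1.70 (SE 0.56, edgeR adjusted p = 0.329), against -0.95 (SE 0.65) with them and -0.25 (SE 0.58) without C572. The value thus depended on which libraries were kept.

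*Sema3e* (ENSMUSG00000063531, chromosome 5, 14075290 to 14306719, plus strand) had the widest range of the members found in every library, with the highest TPM 223 times the lowest. OF1 WT mice had 1196, 93.5 and 1756 normalized counts and OF1-En1+/- mice 22.9, 858 and 324. It was 310 in C5710, 169 in C572S and 837 in C5743 among C57 WT mice. In C57-En1+/- mice it was 601 in C5713, 282 in C572 and 5055 in C575. The last of these stood far above all others. The summed TPM of 8 GABAergic neuron markers was also highest in C575, at 1904 against 70.5 to 755 in the other 11 libraries. Not every gene of that list peaked there. *Gad1* had 619 TPM in C575 and 357 in SW21, but *Gad2* had 88.2 TPM in C575 and 265 in SW21. *Slc32a1* had 7.73 TPM in C575, below 9.35 in C5713 and 8.02 in SW21. Most of the sum in C575 came from genes of the list other than these. The part of GABAergic neurons in the *Sema3e* value of C575 was not tested, and no comparison of *Sema3e* reached an unadjusted edgeR p of 0.05.

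*Sema3d* (ENSMUSG00000040254, chromosome 5, 12433124 to 12638929, plus strand), known from heart and vessel development as well as from axons, had mean normalized counts of 387 ± 284 in WT and 173 ± 88.7 in En1+/- mice of OF1, and of 416 ± 361 in WT and 286 ± 121 in En1+/- mice of C57 (SD, n = 3). No read was assigned to it in C572S, which allows up to 1.66 normalized counts there, while C5710 and C5743 had 612 and 636. *Sema3g* (ENSMUSG00000021904, chromosome 14, 30939808 to 30952309, plus strand) had at most 57.3 normalized counts in any library and none in SW22 and C572S, where 3 reads would be 6.98 and 1.66 normalized counts. At this level differences between groups could not be resolved for *Sema3g*.

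*Nrp1* (ENSMUSG00000025810, chromosome 8, 129085085 to 129231082, plus strand) had a highest TPM 6.47 times its lowest, the smallest such ratio of the 9 genes. On normalized counts *Sema3b* had the smaller ratio (6.12, against 6.82 for *Nrp1*). SW31 had 519, SW7 2304 and SWG 672 normalized counts among OF1 WT mice, and SW21 had 3542, SW22 1539 and SWB 2207 among OF1-En1+/- mice. The C57 WT mice had 1848, 2820.1 and 1077, and the C57-En1+/- mice 2782, 3191 and 2071. SW31 and SWG, which had the most *Sema3a* and *Sema3f*, had the least *Nrp1*, followed by C5743, and these are the 3 libraries with the highest subthalamic and posterior hypothalamic sums. The part of those cells in the values of *Nrp1* was not tested. The OF1 genotype comparison gave a log2 fold change of 1.06 (SE 0.54, edgeR adjusted p = 0.578), with SW7 inside the range of the OF1-En1+/- mice.

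*Nrp2* (ENSMUSG00000025969, chromosome 1, 62742444 to 62857854, plus strand), the coreceptor of SEMA3F and of VEGF-C, had normalized counts of 201, 1664 and 214 in OF1 WT mice. OF1-En1+/- mice had 364, 328 and 159. C57 WT mice had 1068, 176 and 493, and C57-En1+/- mice 423, 5689 and 571. Every C57-En1+/- mouse was above every OF1-En1+/- mouse, and 13.2% of all genes tested did not overlap between these groups. On TPM the gap was narrow, with *Nrp2* at 2.32 in SW21 and 2.34 in C5713. The log2 fold change of *Nrp2* between these groups was -2.98 (SE 1.19, edgeR adjusted p = 0.542). It was -0.82 without C572, the library with 846 summed TPM of cholinergic and motor neuron markers (*Chat* 50.8 TPM, at most 2.70 in the others).

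**Figure D2:**
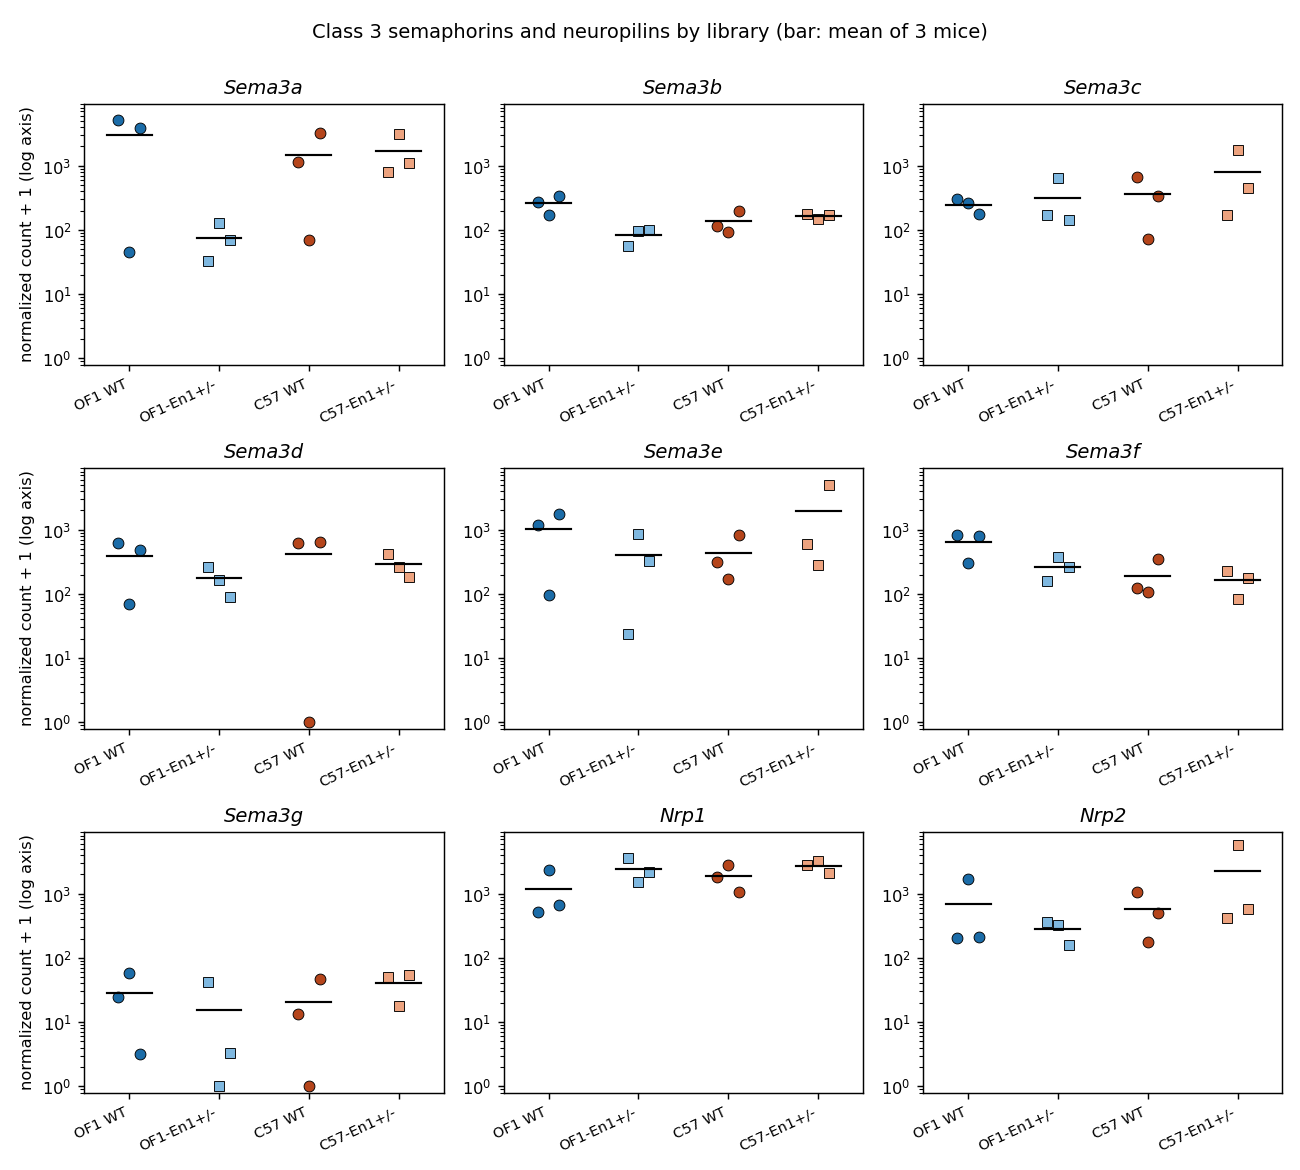
Normalized count + 1 on a log axis for each gene by group. Points are the 3 mice of a group and bars are their means. The OF1-En1+/- mice lie at 31.7 to 126 for *Sema3a*, below 5 of the 6 C57 mice, and do not overlap with OF1 WT mice for *Sema3b*. In normalized counts 15.7% of all genes tested did not overlap between the OF1 groups.

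Across all comparisons edgeR called 0 of the 9 members, and limma voom with quality weights also called 0. In OF1-En1+/- against OF1 WT, 3 members had an unadjusted edgeR p under 0.05, all lower (*Sema3a*, *Sema3b* and *Sema3f*), where 9.18% of all genes tested passed that limit and 0% the adjusted one. DESeq2 called 2 members lower there, against 1.18% of all genes. In normalized counts 1 member did not overlap between the groups, against 15.7% of all genes. The median log2 fold change was -1.28 over the members, 7 of them negative, and -0.02 over all genes tested. Without SW22 and C572S, DESeq2 again called 2 members, and without SW7, the WT mouse low in *Sema3a*, it called 3, the additional one being *Nrp1* (log2 fold change 2.05, adjusted p = 0.000509). These settings were chosen after the data had been seen. SW7 was also the OF1 WT mouse highest in *Nrp1*, so leaving it out widens the differences of both *Sema3a* and *Nrp1*. No share of all genes called is given for these or other fits on fewer libraries, here or below.

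In C57-En1+/- against C57 WT no member reached an unadjusted p under 0.05 in edgeR, where 8.57% of all genes did and 0% passed adjustment. DESeq2 called no member (0.416% of all genes), and no member was separate between the groups (14.3% of all genes). The median log2 fold change was 0.49 over the members, 7 of them positive, and -0.05 over all genes. For the interaction of genotype and strain, 2 members (*Sema3a* and *Sema3b*) had an unadjusted edgeR p under 0.05, against 7.07% of all genes, and edgeR called 0% and DESeq2 0.236% of all genes but no member. Leaving out SW7, DESeq2 called *Sema3a* (adjusted p = 0.036). For En1+/- against WT over both strains the same 2 members were under an unadjusted p of 0.05 (11.4% of all genes), with 0% of all genes called by edgeR and 1.40% by DESeq2, and no member among them. Without SW7 DESeq2 called 2, *Sema3a* and *Nrp1*.

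Between the strains, OF1 WT against C57 WT mice gave 2 members with an unadjusted edgeR p under 0.05, both higher in OF1 (*Sema3b* and *Sema3f*), against 8.63% of all genes. No member was called there by edgeR (1.03% of all genes) or DESeq2 (2.56%), or was separate between the groups (14.8%). Without SW7 DESeq2 called *Sema3f* and *Nrp1*, and without C572 *Sema3f* alone. In OF1-En1+/- against C57-En1+/- mice 3 members were lower in OF1 at an unadjusted edgeR p under 0.05 (8.00% of all genes). The same 3 (*Sema3a*, *Sema3b* and *Nrp2*) were separate between the groups in normalized counts (13.2% of all genes). DESeq2 called *Sema3a* (2.49% of all genes), and edgeR called no member (0.927% of all genes), but a fit on these 6 libraries alone gave *Sema3a* an edgeR adjusted p of 0.0483. DESeq2 without C572 called none. Over both genotypes *Sema3f* was the only member with an unadjusted p under 0.05 (8.68% of all genes), while edgeR called 2.00% and DESeq2 3.67% of all genes and no member. DESeq2 called *Sema3f* when SW7 was left out.

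**Figure D3:**
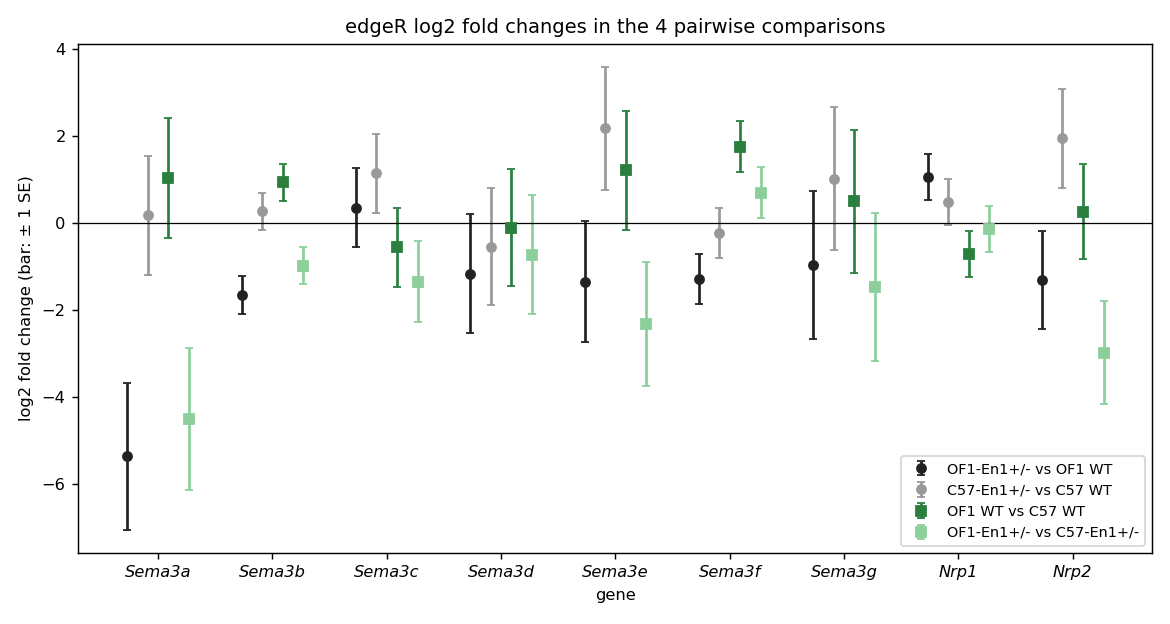
Log2 fold changes from edgeR with 1 SE in the 4 pairwise comparisons, which share mice with each other. *Sema3a* has the most negative values, -5.36 in OF1-En1+/- against OF1 WT and -4.50 in OF1-En1+/- against C57-En1+/- mice, and *Sema3f* is positive in OF1 WT against C57 WT mice (1.75).

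Levels of the members moved in the same direction in some pairs and in opposite directions in others. Of the 36 pairs, 4 had an adjusted p under 0.05 for Pearson's r of log2 levels over the 12 libraries (permutation test with 100000 resamples), and none also for Spearman's rho. *Nrp1* and *Sema3f* ran in opposite directions (r = -0.87, adjusted p = 0.009, rho = -0.80, adjusted p = 0.0736). Within the strains r was -0.99 in the 6 OF1 and -0.73 in the 6 C57 libraries, and without SW31 and SWG, the libraries farthest from the median of *Sema3f*, it was -0.64. *Nrp1* and *Sema3b* gave r = -0.74 (adjusted p = 0.049, rho = -0.64, adjusted p = 0.124), with -0.87 in OF1, -0.45 in C57 and -0.58 without SW21 and SWG. *Sema3c* and *Nrp2* gave r = 0.76 (adjusted p = 0.049, rho = 0.69, adjusted p = 0.0975), which fell to 0.44 without C572 and C572S and was 0.21 in OF1 and 0.95 in C57. The last pair with an adjusted p under 0.05 was *Sema3a* and *Sema3b*, for which no r is given since *Sema3a* falls into separate high and low sets of libraries. All such pairs share the same libraries, with their tissue makeup and depth. The resampling ran across the groups, so differences between groups enter these p.

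**Figure D4:**
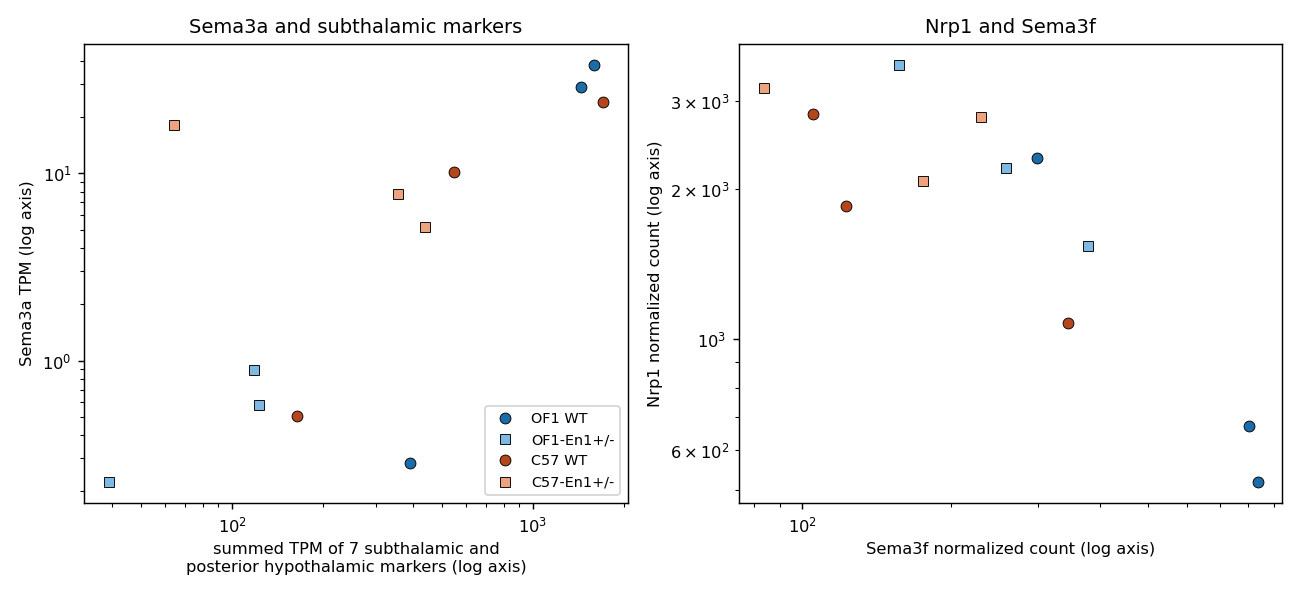
Left, *Sema3a* TPM against the summed TPM of 7 subthalamic and posterior hypothalamic markers. Right, normalized counts of *Nrp1* against *Sema3f*. Points are mice and all axes are log. SW31, SWG and C5743 lie at the top right of the left plot, and C572 (sum 64.1) and SW7 (sum 390) stand apart. On the right the libraries highest in *Sema3f* are lowest in *Nrp1* (r = -0.87).

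The genes with the most similar pattern over the 12 libraries were sought among the 14181 genes that averaged 50 or more normalized counts. For *Sema3a*, where r mainly describes its high and low sets of libraries, the nearest was *Ccn3* (r = 0.93). For *Sema3b* they were *Sct* (r = 0.95) and *Ntng2* (r = 0.93), an axon guidance gene of the netrin-G family. *Nrp1* was nearest to *Rgs2* (r = 0.98), a regulator of G protein signalling, and to *Syndig1* (r = 0.93). *Nrp2* was nearest to *Chodl* (r = 0.94) and *Nfib* (r = 0.91), and *Chodl*, a gene known from motor neurons, was also second for *Sema3c* (r = 0.87) after *Ddx18* (r = 0.87). *Sema3e* was nearest to *Pla2g3* (r = 0.91) and the Wnt receptor *Fzd1* (r = 0.89), *Sema3d* to *Rtel1* (r = 0.94) and *Abca9* (r = 0.93), and *Sema3f* to the long non-coding *B230206L02Rik* (r = 0.91) and *Rab26* (r = 0.88). Spearman's rho of the pairs ran from 0.657 (*Sema3d* and *Abca9*, with *Sema3d* at 0 in C572S) to 0.944 (*Nrp1* and *Rgs2*). It was 0.713 for *Sema3c* and *Ddx18*. These values describe likeness only and were not tested.

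Plexins, which carry the signal of the members into the cell, had mostly negative log2 fold changes in OF1-En1+/- against OF1 WT. Of 9 plexins 8 were negative (median -0.50), edgeR called none and DESeq2, which called 1.18% of all genes, called 3 lower. They were *Plxnd1*, the receptor of SEMA3E (-3.59, SE 0.88, edgeR adjusted p = 0.447, DESeq2 adjusted p = 0.00284), *Plxna2* (-1.32, SE 0.31, DESeq2 adjusted p = 0.0122) and *Plxna4* (-1.18, SE 0.22, DESeq2 adjusted p = 0.000897), both of which pair with neuropilins. The normalized count of *Plxnd1* was 465, 155 and 769 in OF1 WT and 33.4, 32.6 and 48.4 in OF1-En1+/- mice. *Plxnd1*, *Plxna2* and *Plxna4* did not overlap between these groups, as was so for 15.7% of all genes. In C57-En1+/- against C57 WT 3 of the 9 plexins were positive and 6 negative (median -0.08). Neither edgeR nor DESeq2 called any there. The study itself named these 3 plexins and *Sema3a* from the same mice, so their direction is not independent evidence.

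Of 20 intracellular effectors 13 had negative log2 fold changes in the OF1 genotype comparison (median -0.23). DESeq2 called *Dpysl2*, the collapsin response mediator CRMP2 that acts in SEMA3A signalling, lower (-0.79, SE 0.21, DESeq2 adjusted p = 0.0392, edgeR adjusted p = 0.447). The next were *Dpysl5* (-1.26, SE 0.53, edgeR adjusted p = 0.527) and the kinase gene *Fyn* (0.36, SE 0.16, edgeR adjusted p = 0.546). In C57-En1+/- against C57 WT *Dpysl2* had the other sign (0.56, SE 0.20, edgeR adjusted p = 0.550). Its genotype effect in C57 minus that in OF1 was 1.35 (SE 0.29, edgeR adjusted p = 0.691, DESeq2 adjusted p = 0.00651). Of 4 adhesion molecules that serve as coreceptors beside neuropilins, 4 were negative in the OF1 genotype comparison and none was called. The same 4 were also negative in C57-En1+/- against C57 WT (median -0.38). *L1cam*, the partner of neuropilin 1 in SEMA3A responses, was lower in OF1 than in C57 mice over both genotypes (-1.12, SE 0.19, edgeR adjusted p = 0.00598) and was the 1 gene of these lists called there.

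The transcript with the most TPM was *Nrp1-201*, with 95.3% of the summed TPM of *Nrp1* over the 12 libraries and between 90.6 and 100% in each. *Sema3e-201* held 100% and *Sema3d-201* 99.0% of their genes. *Sema3a* was split between *Sema3a-204* and *Sema3a-201*, both protein-coding, with 61.1 and 29.5% in all. In OF1-En1+/- mice the shares were 13.3 and 61.7%, at the low *Sema3a* level of that group, so they rest on few reads. *Nrp2-205* held 55.7% of the summed *Nrp2* TPM. It held 75.8% in C572, which gave most of the *Nrp2* of the C57-En1+/- group, 41.1 and 41.2% in C5713 and C575, and 31.3 to 38.8% in the C57 WT mice, and *Nrp2-202* was next with 20.0%. *Sema3c-201* held 56.8%, and a transcript annotated as intron-retaining held 42.6% of *Sema3c*. *Sema3b-202* held 39.8%, *Sema3f-201* 54.3% and *Sema3g-201*, the only transcript listed for its gene, 100%. These shares are estimates of reads that several transcripts of a gene could have given, and no test was run on them.

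In the 2 libraries rich in dopaminergic markers, the TPM of *Nrp1* was 18.9 (SW22) and 35.3 (C572S) and that of *Sema3a* 0.892 and 0.506. *Sema3f* had 5.55 and 1.68 TPM and *Nrp2* 2.21 and 1.17 TPM there. *Sema3c* had 5.14 TPM in SW22 and 0.640 in C572S, the latter its lowest value of all. These libraries belong to different strains and genotypes and were picked for their marker level, so their values are given without a comparison.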

How the data were processed

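RNA of laser-microdissected SNpc was amplified with SMART-Seq v4 and made into Nextera XT libraries, which do not record strand. The authors ran Salmon on GENCODE transcripts (GRCm39). They deposited an estimated count, which need not be whole, and a TPM for each transcript. By their identifiers, 139555 of 140790 transcripts (99.1%) were found in a newer GENCODE release of that build, and their counts were summed over 54193 genes and rounded. The 18017 genes that averaged 10 or more normalized counts, all 9 members among them, were fitted in edgeR (4.0.16, R 4.3.3) with TMM factors, the robust quasi-likelihood test and 1 mean per group over the 12 libraries. SE is the log2 fold change divided by the square root of F. Adjusted p are by Benjamini-Hochberg over all genes tested, with a threshold of 0.05. Log2 levels used a prior count of 2. Scripts were tested on simulated data.

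The members and the gene lists were chosen with earlier results of these data known. The text names the 9 members, gives their log2 fold changes and tests where an unadjusted p was under 0.05 or groups did not overlap, names up to 3 genes with the smallest p of each pathway list in the OF1 genotype comparison and in that of the strains, and 2 genes most like each member. Other values were chosen after they had been seen. The results of some genes that this rule would name are not reported here. Depth was 13538864 to 168741283 estimated reads, and libraries of 1 group differed by more than sampling noise. Alternatives were DESeq2 1.42.0, limma 3.58.1 (voom), other factors and filters, length offsets, and leaving out libraries. Tables used pandas 2.3.3, scipy 1.17.1 and numpy 2.4.6 under Python 3.11.15, and plots matplotlib 3.10.9.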

Additional observations from a re-analysis of the deposited data

How the results depend on the processing

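edgeR called 0 members in all 7 comparisons with other factors and filters, with length offsets, with each library left out in turn and without SW22 and C572S. DESeq2 called 2 members in OF1-En1+/- against OF1 WT (1 with length offsets, *Sema3b* being lost, 2 without SW22 and C572S, 3 without SW7 and 2 without C572). In OF1-En1+/- against C57-En1+/- it called 1 member, and 1 without SW22 and C572S or without SW7, but 0 with length offsets or without C572, and edgeR called 1 on the groups compared alone. In OF1 WT against C57 WT DESeq2 called 2 without SW7 and 1 without C572. Without SW7 it also called 1 member for the interaction, 1 between strains over both genotypes and 2 between genotypes over both strains. The DESeq2 fits on fewer libraries were added after the data had been seen. The cause of these differences was not tested. None of the 13 log2 fold changes of members with an unadjusted edgeR p under 0.05 changed sign under these alternatives. In 18 cases a log2 fold change that had missed the threshold passed it and in 289 it did not, and 17 of the 18 were with DESeq2. No paired analysis was possible because the labels give the mice no shared numbers. *Sema3g*, and *Sema3a* in the libraries where it was low, rest on few reads.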

Other observations

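The semaphorins of the other classes are mostly bound to the membrane. Of 13 such genes 10 had negative log2 fold changes in OF1-En1+/- against OF1 WT (median -0.27), and neither edgeR nor DESeq2 called any. The smallest p were those of *Sema4g* (-0.86, SE 0.33, edgeR adjusted p = 0.504), *Sema6c* (-1.19, SE 0.55, edgeR adjusted p = 0.544) and *Sema5b* (-0.44, SE 0.35, edgeR adjusted p = 0.741). Between the strains over both genotypes 5 of 13 were higher in OF1 and none was called. Their summed TPM ran from 98.8 to 164 over the 12 libraries.

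Ligands and receptors of the VEGF family, which share the neuropilins with the class 3 semaphorins, had a median log2 fold change of 0.19 in OF1-En1+/- against OF1 WT, with 7 of 8 genes tested. *Vegfb* had -0.74 (SE 0.26, edgeR adjusted p = 0.476), *Vegfc* 1.88 (SE 0.83, edgeR adjusted p = 0.537) and *Flt1* 0.34 (SE 0.27, edgeR adjusted p = 0.746). None was called by edgeR or DESeq2. Of 4 proteases of the furin type, which cleave and so tune class 3 semaphorins, 3 were negative and none was called, and *Pcsk5* had -3.34 (SE 1.13, edgeR adjusted p = 0.474).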
